A study of Homo sapiens with 17 samples.

Results

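LTR7 and its named variants are the long terminal repeats of HERVH, an endogenous retrovirus family of primates. They were followed here as 3634 annotated copies, chosen by name alone from 3594049 repeat loci of a deposited count table. LTR7 had 2306 copies, LTR7B 785, LTR7C 288, LTR7Y 244 and LTR7A 11. A copy was called HERVH-linked when a row of HERVH-int, the internal part of the provirus, lay on the same chromosome and strand within 500 bp. By that rule 2240 copies (61.6%) were linked and 1394 were not.

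The series measured, by sequencing of co-precipitated RNA (RIP-seq), which RNAs came down with the proteins of LINE-1, a retrotransposon that still moves in the human genome. ORF1p is its RNA-binding protein, and ORF2p carries its endonuclease and reverse transcriptase. The cell line, N2102Ep, comes from a human embryonal carcinoma, and the labels name no other treatment or allele. There were 4 ORF1p RIP libraries, 4 ORF2p RIP libraries, 3 mock IP libraries whose descriptions carry the term mIgG without saying which RIP antibody it matches, and 6 libraries of total RNA, all made with a kit that depletes ribosomal RNA after a DNase step.

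An intact HERVH provirus carries an LTR at each end. The upstream (5′) LTR holds the promoter and the downstream (3′) LTR the signal that ends the transcript, while a solo LTR is what recombination leaves behind. HERVH is transcribed in human pluripotent cells, and embryonal carcinoma cells resemble them. LTR7 is the variant best known from embryonic stem cells, whereas LTR7B and LTR7Y have been described as active in the earlier human embryo. Reads counted at an LTR can come from a transcript that starts, ends or merely passes there, and the table cannot separate these.

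Copies differed by variant in what surrounds them. HERVH-int adjoined 1641 LTR7 copies (71.2%) and 182 LTR7Y copies (74.6%), but 321 LTR7B copies (40.9%), 93 LTR7C copies (32.3%) and 3 LTR7A copies. Of the linked copies, 1079 stood upstream of HERVH-int, 1145 downstream and 16 between a pair of HERVH-int rows. Median length ran from 364 bp in LTR7A to 434 bp in LTR7C and LTR7Y. The divergence column, whose unit the file does not state, had a median of 138.5 in LTR7C, against 81 in LTR7, 78 in LTR7Y, 59 in LTR7B and 58 in LTR7A. RefSeq gene spans of GRCh38 covered 1419 copies (39.0%), without regard to strand.

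Some limits on the libraries came before any comparison. Totals over all repeat loci ran from 7693841 to 9125527 estimated counts in ORF1p RIP, 9795032 to 17056092 in ORF2p RIP, 12703395 to 16271143 in mock IP and 8937441 to 19670774 in total RNA. All 17 libraries are labelled with the cell line N2102Ep, also in the column names of the table, but the source is given as embryonal for the 4 ORF1p libraries and as N2102Ep clone 2/A6 for the other 13. The protein precipitated and any difference between these sources cannot be told apart in a comparison with ORF1p RIP. The ORF1p libraries also stood apart by the set of copies that held their reads, as described below. Total RNA came in a series marked b (2 libraries) and a series marked bl (4 libraries), whose LTR7 levels differed. The table has no gene rows, so markers of the cell line could not be read from it. No label says that replicates came from separate cultures, and p-values then measure the spread between libraries only. Levels below are CPM, counts scaled to the size of each library, on the scale set by TMM, a factor that aligns the bulk of the repeat subfamilies between libraries.

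As a share of all repeat reads, the 5 variants together took 0.350% ± 0.032 in ORF1p RIP, 0.617% ± 0.106 in ORF2p RIP, 1.33% ± 0.16 in mock IP and 0.560% ± 0.245 in total RNA (SD, n = 4, 4, 3 and 6). HERVH-int itself took 4.04%, 5.87%, 18.9% and 9.49% in the same order. Both shares were highest in mock IP. Within a bulk sample such as total RNA, fewer cells that make an RNA and less of it per cell cannot be told apart.

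LTR7, the main variant, was at 2458, 2170.2, 2986 and 1982 CPM in ORF1p RIP, at 8303, 5619, 5874 and 7080.0 CPM in ORF2p RIP and at 13682, 10404 and 10902 CPM in mock IP. Total RNA ran from 3051 through a median of 3464 to 6691 CPM. Every ORF1p library lay below every library of the other groups, and every mock library above every library of the other groups.

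LTR7C, the most diverged variant, was at 202.5, 172.6, 259.9 and 167.4 CPM in ORF1p RIP, at 79.6, 47.3, 55.8 and 58.2 CPM in ORF2p RIP and at 76.8, 63.5 and 74.7 CPM in mock IP. Total RNA ran from 31.1 through a median of 35.6 to 73.9 CPM. The ORF1p libraries were above all others, and the ORF2p and mock libraries overlapped.

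LTR7Y was at 926.5, 742.0, 970.7 and 676.1 CPM in ORF1p RIP, at 411.1, 289.9, 306.4 and 358.5 CPM in ORF2p RIP and at 909.7, 663.6 and 710.9 CPM in mock IP. Total RNA ran from 209.8 through a median of 220.5 to 453.4 CPM. ORF1p and mock libraries overlapped, and both lay above all ORF2p libraries.

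LTR7B was at 198.7 ± 15.8 CPM in ORF1p RIP, 233.2 ± 29.8 in ORF2p RIP, 363.9 ± 43.5 in mock IP and 292.6 ± 140.2 in total RNA (SD, n = 4, 4, 3 and 6). LTR7A, with 11 copies, was at 0.379 ± 0.174, 3.21 ± 0.46, 2.90 ± 0.75 and 5.36 ± 2.14 CPM in the same groups. The total RNA means pool 2 series that differed. LTR7B averaged 472.1 CPM in series b and 202.8 CPM in series bl, and LTR7A 2.68 and 6.69 CPM (n = 2 and 4). The mock libraries of LTR7B lay above all RIP libraries, and the ORF1p libraries of LTR7A below all others.

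**Figure D1:**
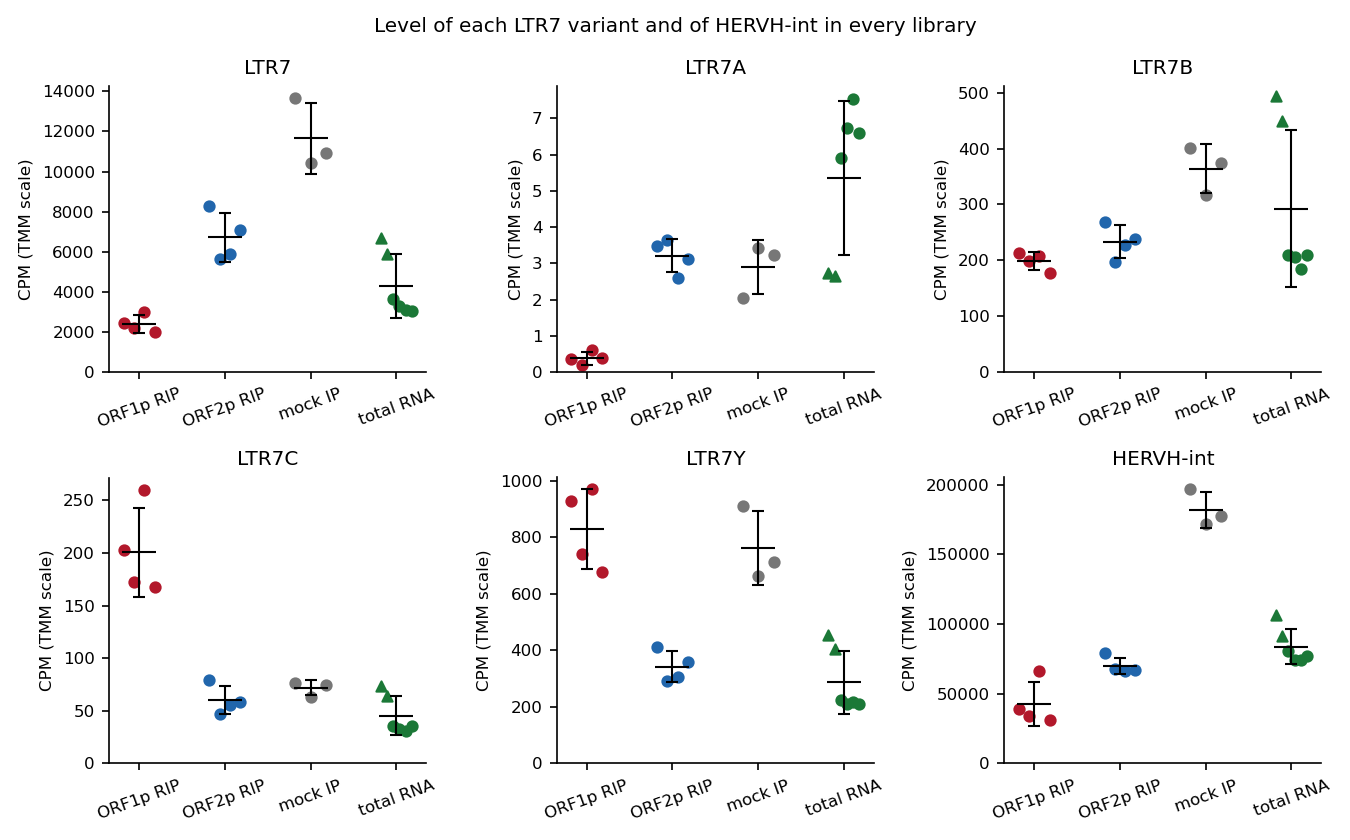
CPM on the TMM scale (y axis, from 0) of the 5 LTR7 variants and HERVH-int in each library (points; triangles are total RNA of series b), with mean ± SD in black. LTR7 falls between 1982 and 2986 CPM in ORF1p RIP and LTR7C between 167.4 and 259.9 CPM, the lowest and the highest group of those panels.

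The RIP libraries were compared with mock IP by edgeR's quasi-likelihood test on all 1074 subfamilies that passed the filter, and a change was called at an adjusted p under 0.05 with at least a 2-fold fitted change. In ORF1p RIP over mock IP, LTR7 fell by 2.28 on the log2 scale (SE 0.27, adjusted p = 3.52e-06) and LTR7A fell by 2.92 (SE 0.52, adjusted p = 0.000198). LTR7A had only 3.25, 1.5, 3.78 and 3.28 estimated reads in the ORF1p libraries, against 33.33, 56.31 and 42.98 in mock IP. Its changes in every comparison with ORF1p RIP therefore rest on few reads. LTR7C rose by 1.48 (SE 0.29, adjusted p = 0.000503). LTR7B stood at -0.87 (SE 0.30, adjusted p = 0.0214), short of 2-fold, and LTR7Y at 0.12 (SE 0.27, adjusted p = 0.724). HERVH-int fell by 2.09 (SE 0.22, adjusted p = 8.79e-07). Over all subfamilies tested, 7.36% were called higher and 8.75% lower in this comparison, with a median change of 0.02.

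Without the top copy of each variant, picked by its reads over all 17 libraries, LTR7Y stood at -0.25 (adjusted p = 0.451 by the same edgeR test). The top LTR7Y copy had 6003.07 estimated reads in ORF1p RIP and 126.38 in mock IP, so leaving it out lowers this change by construction. LTR7Y was called neither with that copy nor without it. LTR7C kept its call without its top copy and in each other setting tried, between 1.06 and 1.58 on the log2 scale, as did LTR7, between -2.40 and -2.15. The 3 LTR7C copies of highest level held 107.5 ± 22.3 CPM in ORF1p RIP and 7.70 ± 1.33 CPM in mock IP, and the remaining LTR7C copies 93.1 ± 20.7 CPM in ORF1p RIP and 64.0 ± 6.1 CPM in mock IP (SD, n = 4 and 3).

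In ORF2p RIP over mock IP, LTR7Y fell by 1.16 (SE 0.27, adjusted p = 0.00353) and was the only variant called. LTR7 stood at -0.80 (SE 0.26, adjusted p = 0.0303) and passed 2-fold only when libraries were scaled by their totals (-1.10, adjusted p = 0.00388). LTR7B stood at -0.64 (adjusted p = 0.105), LTR7C at -0.25 (adjusted p = 0.530) and LTR7A at 0.17 (adjusted p = 0.764). HERVH-int fell by 1.38 (SE 0.21, adjusted p = 0.000173). Of all subfamilies, 6.7% were called higher and 1.49% lower here.

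Set directly against each other, the RIPs differed by variant. In ORF1p RIP over ORF2p RIP, LTR7C rose by 1.73 (SE 0.27, adjusted p = 4.68e-05) and LTR7Y by 1.28 (SE 0.25, adjusted p = 0.000411), while LTR7 fell by 1.49 (SE 0.25, adjusted p = 0.000105) and LTR7A by 3.09 (SE 0.51, adjusted p = 7.49e-05). LTR7B stood at -0.23 (adjusted p = 0.490). Calls took in 6.52% of all subfamilies as higher and 12.4% as lower. Without its top copy LTR7Y stood at 0.91 (adjusted p = 0.00491), under 2-fold.

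Against total RNA, LTR7C rose by 2.13 (SE 0.24, adjusted p = 1.26e-06) and LTR7Y by 1.53 (SE 0.22, adjusted p = 2.20e-05) in ORF1p RIP, and LTR7A fell by 3.80 (SE 0.46, adjusted p = 3.12e-06). Against series b alone and series bl alone, LTR7C stood at 1.47 and 2.53 and LTR7A at -2.87 and -4.16, all called. LTR7Y was at 0.88 (adjusted p = 0.000185) against series b, not called, and at 1.91 against series bl, called. LTR7 and LTR7B were called lower against series b, at -1.46 and -1.31, and not against series bl, at -0.48 and -0.057. With all 6 total RNA libraries, ORF2p RIP over total RNA had no variant called across all subfamilies by edgeR's quasi-likelihood test. LTR7 at 0.65 (adjusted p = 0.0298) and LTR7A at -0.71 (adjusted p = 0.0796) were the 2 variants with an unadjusted p under 0.05. Calls appeared there when the series were taken apart. Against series bl alone LTR7 was called higher at 1.03 (adjusted p = 1.77e-06) and LTR7A lower at -1.06 (adjusted p = 0.000149), and against series b alone LTR7B was called lower at -1.06 (adjusted p = 1.68e-06). With all 6 total RNA libraries, 9.12% of all subfamilies were higher and 8.29% lower in ORF1p RIP over total RNA, and 5.12% and 1.3% in ORF2p RIP over total RNA. The shares of all subfamilies called against a single series are not given here and can differ. The single-series calls therefore cannot be set against a background.

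The mock IP was not a copy of total RNA at these repeats. LTR7 rose by 1.45 (SE 0.24), LTR7Y by 1.41 (SE 0.24) and HERVH-int by 1.12 (SE 0.19) in mock IP over total RNA, each with an adjusted p of 0.00391. LTR7C stood at 0.65 (adjusted p = 0.136), LTR7B at 0.31 (adjusted p = 0.400) and LTR7A at -0.88 (adjusted p = 0.124). Only 0.745% of all subfamilies were called higher and 0.0% lower. Against series b alone the changes were 0.87 for LTR7 (adjusted p = 0.0171) and 0.81 for LTR7Y (adjusted p = 0.0179), under 2-fold. Against series bl alone they were 1.85 and 1.84, both called, and LTR7C (1.10) and LTR7A (-1.20) were called as well. The share of all subfamilies called against series bl alone is not given here. Among loci tested singly, 3.96% were higher and 1.17% lower with all total RNA libraries, and 15.8% and 21.3% against series bl alone. Fitted on mock IP and total RNA alone, both calls were lost at changes of 1.45 and 1.41 (adjusted p = 0.0514 and 0.0538).

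Other retroviral sequences were read from a fixed list. Of 20 other LTR subfamilies 4 rose and 2 fell in ORF1p RIP over mock IP (median -0.14), where 7.36% of all subfamilies were called higher and 8.75% lower, with LTR12D at -1.83 (adjusted p = 2.92e-05) and LTR2 at -1.21 (adjusted p = 3.19e-05) the members of smallest p. In ORF2p RIP over mock IP 1 of them was called, as lower (median -0.12; 1.49% of all subfamilies were called lower and 6.7% higher), while LTR10C stood at -0.31 (adjusted p = 0.000684) and MLT2A1 at -0.52 (adjusted p = 0.000741). Of 15 other internal parts, 2 rose and 4 fell in ORF1p RIP over mock IP, led by HERV-Fc1-int at -5.82 (adjusted p = 3.01e-08), and 3 fell in ORF2p RIP over mock IP, among them HERVS71-int at -1.17 (adjusted p = 2.97e-05).

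Each variant was also split by HERVH-int. HERVH-linked LTR7Y copies were at 810.9 ± 140.0 CPM in ORF1p RIP and 710.0 ± 123.7 CPM in mock IP (SD, n = 4 and 3), a change of 0.19 (adjusted p = 0.571). The other LTR7Y copies were at 17.9 ± 2.2 CPM in ORF1p RIP and 51.4 ± 7.4 CPM in mock IP and fell by 1.52 (SE 0.24, adjusted p = 4.97e-05). The linked level rested on few copies, since 3 linked copies held 414.7 CPM in ORF1p RIP and 9.26 CPM in mock IP, and the remaining linked copies held between 318.9 and 467.6 CPM in ORF1p RIP and between 613.0 and 838.5 CPM in mock IP. Of 74 linked LTR7Y copies tested singly in this comparison 15 were higher and 47 lower (median change -2.56), and of 6 others 0 were higher and 4 lower (median -2.27). Among all loci tested singly there, 32.6% were higher and 34.1% lower. Both parts of LTR7 fell, the linked copies by 2.34 (SE 0.27, adjusted p = 2.76e-06) and the others by 1.53 (SE 0.25, adjusted p = 9.18e-05). Both parts of LTR7C rose, the linked copies by 2.01 (SE 0.27, adjusted p = 1.52e-05) and the others by 1.19 (SE 0.31, adjusted p = 0.00390). A single linked LTR7C copy held 47.3 CPM in ORF1p RIP and 0.473 CPM in mock IP, and the remaining linked copies 39.6 ± 7.4 CPM in ORF1p RIP and 21.1 ± 2.3 CPM in mock IP. A pair of unlinked LTR7C copies held 60.2 CPM in ORF1p RIP and 7.23 CPM in mock IP, and the remaining unlinked copies between 43.4 and 73.5 CPM in ORF1p RIP and between 38.7 and 46.6 CPM in mock IP, where the libraries overlapped. Of all entries tested with the variants split, 16.4% were called in either direction. Whether the linked and other parts differ in their change was not tested.

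In ORF2p RIP over mock IP the linked LTR7Y copies fell by 1.22 (SE 0.27, adjusted p = 0.00274) and no other part of LTR7, LTR7B, LTR7C or LTR7Y was called, where 8.16% of entries were. Linked LTR7Y copies in ORF1p RIP over ORF2p RIP, where 19.2% were called, rose by 1.41 (SE 0.26, adjusted p = 0.000194) while the others fell by 1.02 (SE 0.22, adjusted p = 0.00100). Linked and other LTR7C copies rose there by 1.74 each.

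**Figure D2:**
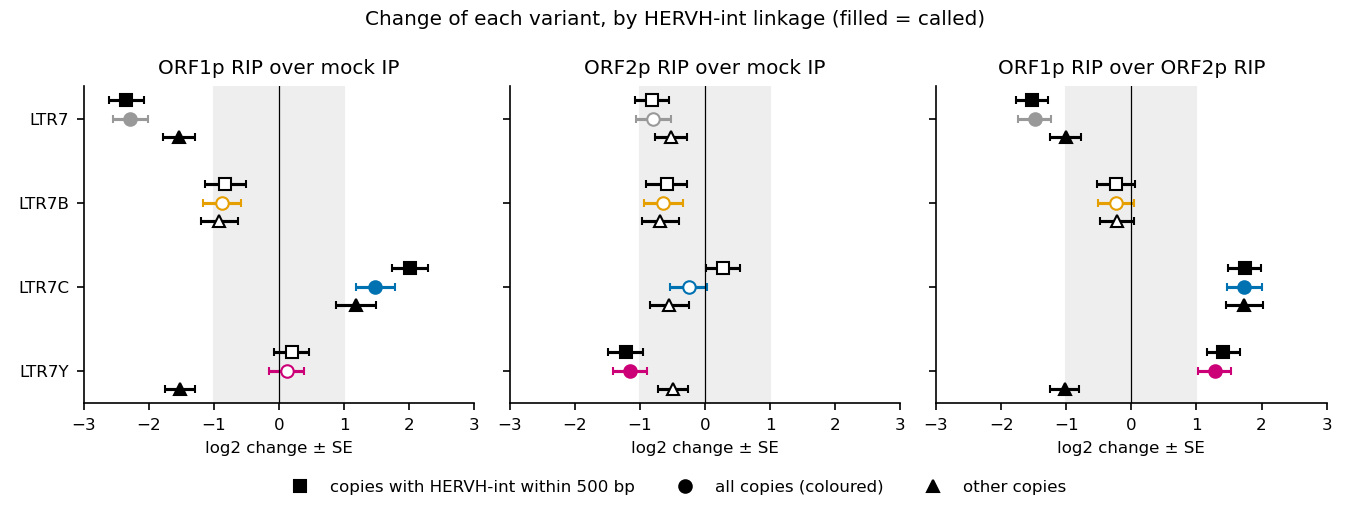
Fitted log2 change ± SE (x axis) of 4 variants in 3 comparisons, for all copies (circles), HERVH-linked copies (squares) and other copies (triangles); filled marks were called and the grey band is under 2-fold. In ORF1p RIP over mock IP the linked LTR7Y copies are at 0.19 and the others at -1.52, where 3 linked copies hold 414.7 of the 810.9 CPM of linked copies in ORF1p RIP.

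Per kilobase of annotated sequence, linked copies stood above the others in every group for LTR7, LTR7B and LTR7Y. LTR7Y linked copies had 11.7 ± 2.0 CPM per kb in ORF1p RIP, 4.41 ± 0.79 in ORF2p RIP, 10.3 ± 1.8 in mock IP and 3.68 ± 1.45 in total RNA, against 0.878, 1.79, 2.52 and 1.58 CPM per kb in its other copies. LTR7 linked copies had 3.23 ± 0.60, 9.33 ± 1.74, 16.4 ± 2.5 and 5.90 ± 2.20 CPM per kb. In ORF1p RIP the order per kb was therefore LTR7Y above LTR7 among linked copies, and in mock IP the reverse. LTR7C linked copies had 2.24 ± 0.46 CPM per kb in ORF1p RIP, 0.558 ± 0.064 in mock IP and 0.363 ± 0.127 in total RNA, against 1.52 ± 0.33, 0.667 ± 0.062 and 0.420 ± 0.181 in its other copies. Linked LTR7C copies stood above the others in 4 of 4 ORF1p libraries, 4 of 4 ORF2p libraries, 0 of 3 mock libraries and 1 of 6 total RNA libraries.

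Ratios within a library do not depend on scaling. LTR7Y made up 22.9% ± 1.1 of all LTR7 variant reads in ORF1p RIP, 4.65% ± 0.09 in ORF2p RIP, 5.91% ± 0.12 in mock IP and 5.85% ± 0.28 in total RNA (SD, n = 4, 4, 3 and 6). LTR7C made up 5.51% ± 0.28, 0.815% ± 0.064, 0.561% ± 0.055 and 0.924% ± 0.053 in the same groups. LTR7 made up 66.1% ± 1.1 in ORF1p RIP, 91.3% ± 0.3 in ORF2p RIP, 90.7% ± 0.3 in mock IP and 87.3% ± 0.8 in total RNA. No ORF1p library overlapped any other library in these 3 shares.

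An exact two-sided permutation test gave p = 0.0286 for each of these 3 shares in ORF1p RIP against ORF2p RIP and p = 0.0571 in ORF1p RIP against mock IP, the smallest values that 4 against 4 and 4 against 3 libraries allow. None of 78 such exact permutation tests passed after Benjamini-Hochberg adjustment, against 32 at an unadjusted p under 0.05, where the smallest adjusted p was 0.0531. With 4 against 3 libraries the exact test cannot pass the threshold. HERVH-linked copies held 43.3% ± 1.9 of LTR7C reads in ORF1p RIP and 43.3% ± 2.3 in ORF2p RIP, against 30.1% ± 0.5 in mock IP and 31.4% ± 2.6 in total RNA.

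Reads at 5′ LTRs made up 37.4% ± 6.9 of the reads at linked copies in ORF1p RIP, 37.3% ± 1.1 in ORF2p RIP, 42.6% ± 1.2 in mock IP and 34.8% ± 3.8 in total RNA (SD, n = 4, 4, 3 and 6). ORF1p replicate 3 was at 27.4% and the other ORF1p libraries between 39.3% and 43.0%. ORF2p and mock libraries did not overlap (exact permutation p = 0.0571, adjusted over 78 tests 0.0874), and ORF1p and mock libraries did. On the log2 scale, reads at the 5 variants over reads at HERVH-int were -3.51 ± 0.26 in ORF1p RIP, -3.26 ± 0.17 in ORF2p RIP, -3.83 ± 0.11 in mock IP and -4.16 ± 0.31 in total RNA. The ORF2p libraries held more LTR reads per HERVH-int read than any mock library (exact permutation p = 0.0571, adjusted 0.0874).

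The reads of a variant sat in few copies in ORF1p RIP. For LTR7Y, 3 copies held 50% of the reads in ORF1p RIP, against 19 in ORF2p RIP, 20 in mock IP and 21 in total RNA. For LTR7C the numbers were 3, 7, 16 and 10 copies, and for LTR7 they were 18, 57, 81 and 84. Single libraries needed 3 to 4 LTR7Y copies in ORF1p RIP and 19 to 20 in mock IP. LTR7B was spread alike, with 16, 19, 19 and 17 copies.

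**Figure D3:**
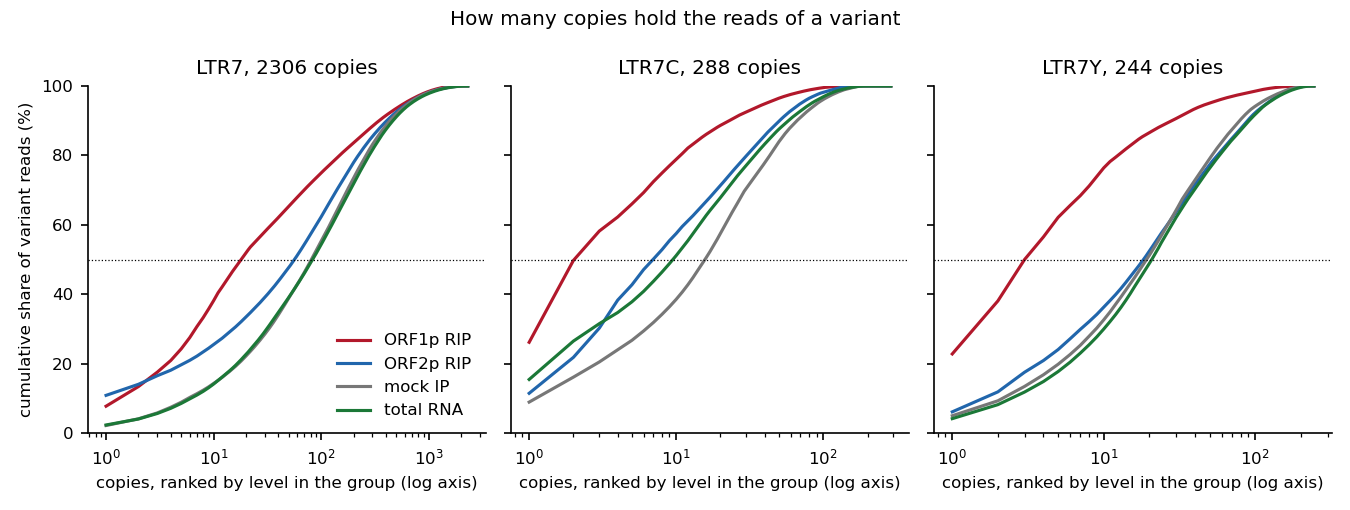
Cumulative share of a variant's reads (y axis, percent) over its copies ranked by mean level within each group (x axis, log scale), for LTR7, LTR7C and LTR7Y; the dotted line marks 50%. The ORF1p RIP curve crosses it at 3 copies of LTR7Y, and the mock IP curve at 20.

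The copies themselves also differed. Among the 50 copies of highest level in each group, ORF1p RIP shared 7 with ORF2p RIP, 6 with mock IP and 6 with total RNA, whereas ORF2p RIP shared 32 with mock IP and 31 with total RNA, and mock IP 37 with total RNA. Across all 3634 copies the Spearman correlation of mean levels was 0.651 for ORF1p RIP with mock IP, 0.872 for ORF2p RIP with mock IP and 0.913 for mock IP with total RNA, as a description of points that share depth and copy length. Between single libraries of one group it ran from 0.600 to 0.691 in ORF1p RIP, 0.715 to 0.776 in ORF2p RIP, 0.856 to 0.866 in mock IP and 0.767 to 0.884 in total RNA.

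With copies ranked by divergence and cut into 3 equal sets, the most diverged set held 71.9% of LTR7Y reads in ORF1p RIP, 43.2% in ORF2p RIP, 41.6% in mock IP and 38.2% in total RNA, and the least diverged set 2.56%, 19.6%, 26.7% and 28.6%. The 3 LTR7Y copies of highest level (divergence 92 to 95) lay in the most diverged set, and without them that set held 43.8%, 42.7%, 40.9% and 37.4% in the same groups, the middle set 51.1%, 37.5%, 32.1% and 33.7%, and the least diverged set 5.11%, 19.8%, 27.05% and 29.0%. For LTR7 the least diverged set held 50.3%, 72.8%, 72.7% and 70.3%. LTR7B held 40.6%, 37.6%, 37.8% and 35.1% in that set, close in all groups. These are sums over copies, given with no test.

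Single copies were tested among all 122569 repeat loci that passed a filter at 30 reads, which 746 of the 3634 copies did (606 LTR7, 80 LTR7Y, 40 LTR7B, 19 LTR7C and 1 LTR7A). A further 130 copies were at 0 in all 17 libraries. A copy could pass through the group in which it was high, so the counts describe the tested copies and support nothing further. For the same reason, named copies that are near 0 in most groups are given below by their values, or with a fitted change and no test.

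In ORF1p RIP over mock IP, 69 of the 746 were called higher and 602 lower (median change -4.09), where 32.6% of all loci tested were higher and 34.1% lower. LTR7 had 40 higher and 521 lower of 606, LTR7Y 15 higher and 51 lower of 80, LTR7B 5 and 23 of 40, and LTR7C 9 and 6 of 19. In ORF2p RIP over mock IP, 19 were higher and 347 lower (median -1.26), against 17.4% and 13.7% of all loci. Without mock replicate 1 the lower count was 226 (8.55% of all loci were lower), and without mock replicate 2 the higher count was 12 (13.5% of all loci were higher). LTR7Y had 43 of 80 tested copies lower there, and LTR7 293 of 606.

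In ORF1p RIP over ORF2p RIP, 91 copies were higher and 532 lower, where 31.5% and 36.7% of all loci were. In mock IP over total RNA, 353 were higher and 1 lower (median 1.42), where 3.96% and 1.17% of all loci were. That last count depended on single libraries, and the share of all loci called higher moved with it. The count was 48 without mock replicate 1 (0.403% of all loci), 157 without mock replicate 3 (0.963%) and 186 without mock replicate 2 (1.32%). Without any 1 library of series bl it was between 205 and 229 (1.91% to 2.23%). Leaving out total RNA replicate 1 or 2 gave 498 and 472 (8.42% and 7.57%). It was 39 against series b alone (1.38%) and 550 against series bl alone (15.8%). It was 411 without ORF1p replicate 3 (4.95%), and 11 with the replicate number as a block (0.0498%).

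**Figure D4:**
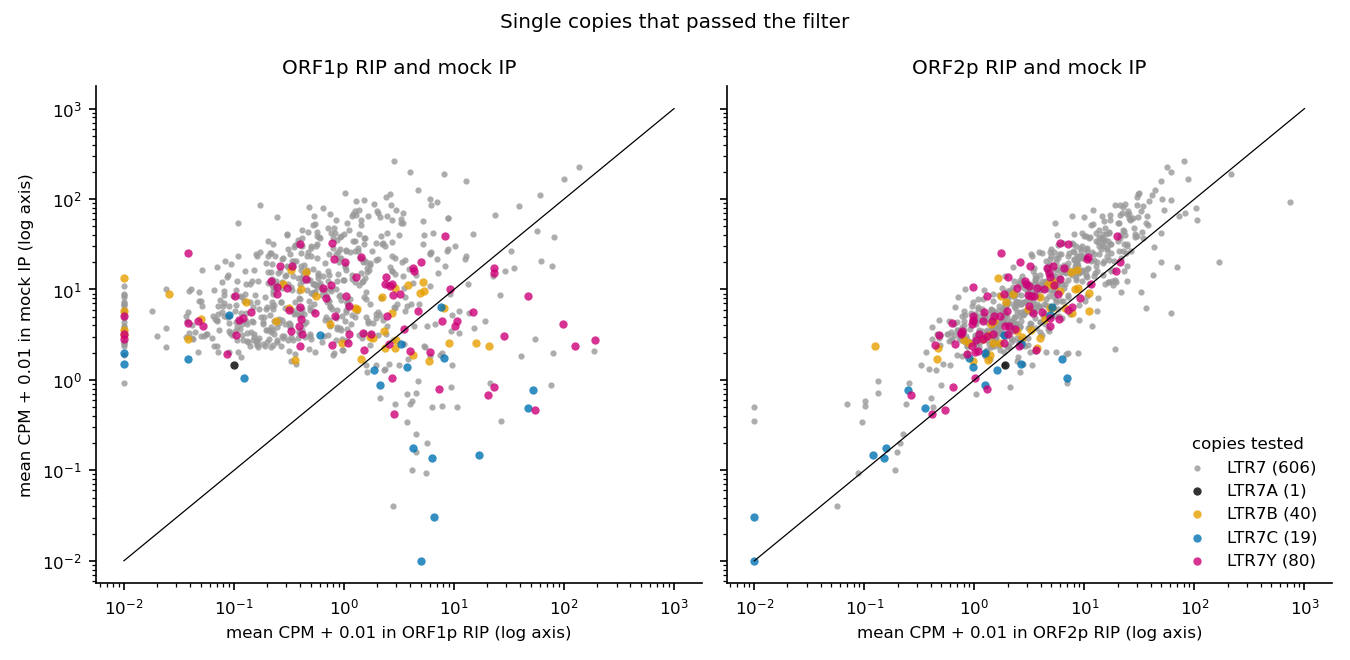
Mean level of each of the 746 tested copies in a RIP (x axis) and in mock IP (y axis), as CPM + 0.01 on log axes, coloured by variant, with the line of equal level. In ORF1p RIP most LTR7 copies lie above the line and a few LTR7Y and LTR7C copies far below it, while in ORF2p RIP the points follow the line more closely.

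Linked LTRs were set beside the HERVH-int next to them. Of 627 pairs of a tested LTR and its tested HERVH-int neighbour, 96.7% changed with the same sign in ORF1p RIP over mock IP, 556 pairs lower and 50 higher, and 91.9% in ORF2p RIP over mock IP, 546 lower and 30 higher. The Spearman correlation of the paired changes was 0.760 and 0.676. Most copies of either kind changed one way in these comparisons. In ORF2p RIP over total RNA, where they did not, 63.6% of pairs shared a sign, 225 lower and 174 higher against 228 opposite, with a correlation of 0.599. Pairs lie side by side and share libraries, so these are descriptions.

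The 3 LTR7Y copies of highest level were all copies that carried ORF1p reads. An LTR7Y 3′ LTR at chrX:92273083-92273516 (hg38, minus strand, within the span of PCDH11X, a protocadherin gene) was at 201.1, 155.5, 256.1 and 145.5 CPM in ORF1p RIP, at 0.951, 1.23, 0.790 and 1.11 CPM in ORF2p RIP and at 3.30, 1.88 and 3.10 CPM in mock IP, and reached at most 1.67 CPM in total RNA. The fitted change was 6.10 in ORF1p RIP over mock IP and -1.41 in ORF2p RIP over mock IP.

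The other two flank 1 provirus inside the span of DPH6, which encodes an enzyme of diphthamide synthesis. Its 5′ LTR at chr15:35238629-35239062 (plus strand) averaged 98.7 ± 29.0 CPM in ORF1p RIP, 0.939 ± 0.436 in ORF2p RIP and 4.12 ± 1.82 in mock IP (SD, n = 4, 4 and 3). The 3′ LTR at chr15:35243404-35243837 averaged 126.4 ± 28.3, 0.947 ± 0.379 and 2.37 ± 0.61 CPM. The fitted changes in ORF1p RIP over mock IP were 4.58 and 5.72, and the LTRs at both ends were high in all 4 ORF1p libraries. Together the 3 copies held 414.7 ± 68.0 CPM in ORF1p RIP and 9.26 ± 2.96 CPM in mock IP, while the remaining LTR7Y copies held 414.1 ± 74.1 CPM in ORF1p RIP and 752.2 ± 127.6 CPM in mock IP.

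A further LTR7Y 3′ LTR, at chr5:136540943-136541374 (minus strand, outside annotated genes), was at 48.4, 36.7, 92.9 and 38.4 CPM in ORF1p RIP and at 0.717, 0.330 and 0.325 CPM in mock IP, a fitted change of 6.88. Its ORF2p RIP libraries lay between 0 and 0.963 CPM.

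LTR7C had a pair of such copies. One at chr5:43607164-43607606 (plus strand, no HERVH-int nearby, within the span of NNT, the mitochondrial transhydrogenase gene) was at 53.1, 45.3, 66.3 and 45.6 CPM in ORF1p RIP, against 1.06, 0.704 and 0.551 CPM in mock IP. The fitted change was 6.08, and this copy held 52.6 ± 9.9 of the 113.8 CPM of unlinked LTR7C copies in ORF1p RIP, against 0.772 of 50.1 CPM in mock IP. The other, a 3′ LTR at chr3:46387685-46388125 (minus strand, within CCR5AS, an antisense RNA gene), was at 52.7, 38.6, 61.1 and 36.7 CPM in ORF1p RIP, against 0.740, 0.296 and 0.384 CPM in mock IP, a fitted change of 6.61. Neither passed 0.85 CPM in any ORF2p library. Another LTR7C copy of high level, at chrX:13741569-13742016 in the span of OFD1, a centrosome gene, was at 7.57 ± 1.92, 5.07 ± 3.99 and 6.46 ± 1.43 CPM in ORF1p RIP, ORF2p RIP and mock IP and was called in neither RIP over mock IP.

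Some copies were read almost in ORF1p RIP alone. An LTR7C 3′ LTR at chrX:153094556-153094994 had 151.47 estimated reads over the 4 ORF1p libraries and 0 in all 13 others. An LTR7C 3′ LTR at chr7:106838082-106838519, in the span of LINC02577, had 199.13 reads in ORF1p RIP and 1 in mock IP. Both copies passed the filter through ORF1p RIP alone, so these reads describe them and support nothing further.

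The opposite pattern was seen at an LTR7B copy at chr4:19027943-19028402, at 0 in all ORF1p libraries and at 15.6, 10.2 and 13.9 CPM in mock IP. An LTR7 5′ LTR at chr6:6033187-6033600 was likewise at 0 in ORF1p RIP and at 11.4, 12.2 and 8.74 CPM in mock IP. An LTR7 3′ LTR at chr1:185948279-185948729 in the span of HMCN1, an extracellular matrix gene, had 0.5 estimated reads in ORF1p RIP and 461.1 in mock IP.

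The LTR7 copy of highest level lay on opposite sides of the mock IP in the RIPs. This 3′ LTR at chr2:77093667-77094030 (plus strand, within the span of LRRTM4, a synaptic membrane protein gene) was at 6.76, 6.24, 6.88 and 8.20 CPM in ORF1p RIP, at 978.8, 629.4, 571.2 and 762.1 CPM in ORF2p RIP and at 101.6, 89.1 and 87.9 CPM in mock IP. Total RNA ran from 19.6 through 26.4 to 36.6 CPM. It rose by 2.99 (SE 0.32, adjusted p = 8.88e-07) in ORF2p RIP over mock IP and fell by 3.72 (SE 0.31, adjusted p = 1.97e-09) in ORF1p RIP over mock IP. This copy held 10.9% of all LTR7 reads in ORF2p RIP.

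The largest rises in ORF2p RIP over mock IP that met the naming rule were LTR7 copies too. A 3′ LTR at chr20:45764834-45765245 was at 71.2, 66.4, 48.6 and 59.0 CPM in ORF2p RIP and at 6.80, 4.59 and 5.07 CPM in mock IP, a rise of 3.48 (SE 0.37, adjusted p = 8.11e-07), and it rose by 1.31 in ORF1p RIP over mock IP as well (adjusted p = 0.00196). A 3′ LTR at chr6:62797042-62797450 averaged 18.8 ± 3.6 CPM in ORF2p RIP and 2.20 ± 0.91 CPM in mock IP (rise of 3.09, adjusted p = 3.42e-05). A 5′ LTR on chromosome 8 averaged 166.5 ± 22.2 CPM in ORF2p RIP, 0.891 ± 0.320 in ORF1p RIP and 20.4 ± 2.0 in mock IP, a rise of 3.03 in ORF2p RIP over mock IP (adjusted p = 1.93e-06).

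Falls in ORF2p RIP were led by an LTR7B copy at chr2:200862214-200862677, in the span of CLK1, a kinase that acts on splicing factors. It was at 26.3, 21.2, 22.0 and 14.4 CPM in ORF1p RIP, at 0, 0.188, 0 and 0.274 CPM in ORF2p RIP and at 3.19, 1.88 and 1.97 CPM in mock IP. The fitted change was 3.16 in ORF1p RIP over mock IP and -3.98 in ORF2p RIP over mock IP, comparisons that share the mock libraries.

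An LTR7Y 5′ LTR at chr14:31250670-31251138 was at 2.04, 1.36, 1.55 and 2.06 CPM in ORF2p RIP and at 32.2, 23.6 and 20.9 CPM in mock IP, with 1.06 estimated reads over all ORF1p libraries. In total RNA it was at 8.90 and 5.73 CPM in series b and between 0.345 and 0.763 CPM in series bl. An LTR7 5′ LTR at chr9:100146116-100146522 in the span of INVS, which encodes the ciliary protein inversin, averaged 0.841 ± 0.477 CPM in ORF1p RIP, 0.815 ± 0.446 in ORF2p RIP and 10.2 ± 2.3 in mock IP, with a fitted change of -3.61 in each RIP over mock IP.

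Among the LTR7 copies of highest level was a 5′ LTR in the span of ESRG, an HERVH-derived long noncoding RNA known from human pluripotent cells, at chr3:54639753-54640204 (minus strand, also in the span of CACNA2D3, a calcium channel subunit gene). It was at 167.6, 152.6, 90.4 and 131.9 CPM in ORF1p RIP, at 82.2, 46.8, 39.1 and 58.3 CPM in ORF2p RIP and at 273.6, 215.8 and 185.3 CPM in mock IP. In total RNA the series b libraries were at 107.0 and 85.6 CPM, and series bl lay between 13.1 and 17.1 CPM. Its change in ORF1p RIP over mock IP was -0.73 (adjusted p = 0.292), and it fell by 1.99 (SE 0.61, adjusted p = 0.0163) in ORF2p RIP over mock IP. That call was lost without mock replicate 1 (adjusted p = 0.0578) or without ORF2p replicate 3 (adjusted p = 0.0525).

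Another LTR7 copy of high level, a 3′ LTR at chr1:112820145-112820531 in the span of LINC01356, was at 5.19, 3.85, 18.4 and 5.11 CPM in ORF1p RIP, at 285.1, 165.8, 177.7 and 227.6 CPM in ORF2p RIP and at 219.1, 182.8 and 168.0 CPM in mock IP. It fell by 4.56 (adjusted p = 2.19e-08) in ORF1p RIP over mock IP and stood at 0.17 (adjusted p = 0.783) in ORF2p RIP over mock IP.

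**Figure D5:**
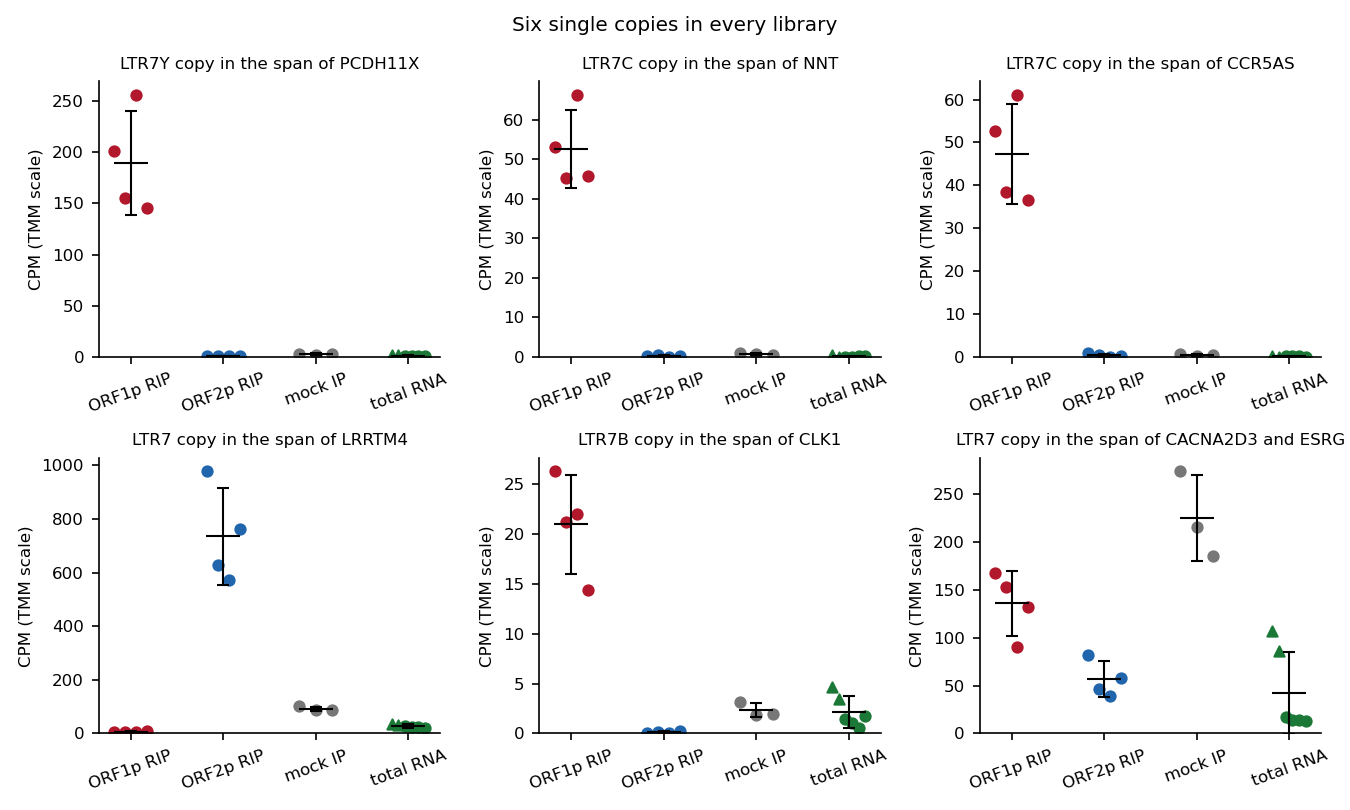
CPM on the TMM scale (y axis, from 0) of 6 single copies in every library (points; triangles are total RNA of series b), with mean ± SD in black. The PCDH11X, NNT and CCR5AS copies are high in ORF1p RIP alone, the LRRTM4 copy in ORF2p RIP (571.2 to 978.8 CPM), and the CLK1 copy lies above the mock in ORF1p RIP and below it in ORF2p RIP.

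The LTR7B copies of highest level showed no shared pattern. A 5′ LTR at chr12:11614839-11615294 averaged 0.444 ± 0.247 CPM in ORF1p RIP, 7.55 ± 3.59 in ORF2p RIP and 15.5 ± 1.2 in mock IP, and a copy at chrX:23438140-23438568 averaged 0.322 ± 0.273, 8.47 ± 1.22 and 16.6 ± 2.7 CPM. The first fell by 5.11 (adjusted p = 7.49e-08) and the second fell by 5.61 (adjusted p = 1.41e-06) in ORF1p RIP over mock IP. A 3′ LTR at chr16:21871872-21872320 averaged 4.94 ± 0.55, 10.9 ± 1.8 and 9.09 ± 1.14 CPM and was called in neither RIP over mock IP.

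The LTR7A copy of highest level, at chrX:84958317-84958680, averaged 0.090 ± 0.107 CPM in ORF1p RIP, 1.90 ± 0.70 in ORF2p RIP, 1.45 ± 0.54 in mock IP and 4.29 ± 2.33 in total RNA, and held 80.0% of LTR7A reads in total RNA. The top LTR7A copy of each other group held 26.4% in ORF1p RIP, 59.2% in ORF2p RIP and 49.97% in mock IP. The copy at chrX:84958317-84958680 passed the filter through total RNA alone, where 4 libraries reached the cutoff. Its fitted change was -3.87 in ORF1p RIP over mock IP, on 3.28 and 67.39 estimated reads. The next LTR7A copies, at chrX:109178345-109178794 and chr19:39958975-39959078, stayed under 0.6 CPM in every library and were not tested.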

How the data were processed

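RNA from ORF1p RIP, ORF2p RIP and mock IP and total RNA of N2102Ep cells were sequenced after ribosomal depletion. The submitters' processing notes name STAR and hg38, and no counting program is given in the sources used. The deposited table gives the authors' estimated counts per repeat locus, not normalized and not always whole. Of its 60 value columns, 17 matched the labels and 43 were not used. Estimates cannot place reads shared by near-identical copies with certainty, so single copies of young variants are uncertain.

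Counts were summed by subfamily, and by variant with and without HERVH-int within 500 bp, then rounded. Each table was fitted over all 17 libraries with edgeR 4.0.16 (quasi-likelihood, R 4.3.3), with filterByExpr at a minimum count of 10 for subfamilies and 30 for loci. TMM factors of the subfamily table (0.807 to 1.21) were also used for the loci, and the table with variants split had its own TMM factors. The Benjamini-Hochberg adjustment ran over every feature tested. Shares were compared by exact two-sided permutation tests (scipy 1.17.1), adjusted over 78 tests. Starts were counted from 1 by adding 1 to the file's, and gene spans came from RefSeq on GRCh38.p14.

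Named copies were the 3 of highest CPM per variant, averaged over the group means, and the 3 largest called rises and falls in each RIP over mock IP among copies with at least 1 CPM in a group mean and no overlap between libraries. Members, lists and tests were chosen with earlier results of these data known. Alternatives covered scaling, filters, DESeq2 1.42.0, the linking distance, the top copy of each variant, each library, each total RNA series (added after seeing the data) and the replicate number as a block. The fits were tried on data simulated at the mean levels of mock IP, with known changes placed in the ORF1p RIP columns. The simulated spread between libraries was fixed and not taken from the replicates, so the rates that follow hold for that spread only. On these data the subfamily fit called 100% of 4-fold changes, 52% and 62% of 2-fold falls and rises and 0 of 870 unchanged subfamilies. The locus fit called 85.2% and 93.7% of 4-fold falls and rises, 15.5% and 17.3% of 2-fold ones and 35 of 71297 unchanged loci. No pair of replicates agreed within sampling noise (smallest chi-square per degree of freedom 12.8). ORF1p replicate 3 stood apart, at 448.6 to 499.7 against the other ORF1p libraries, which were at 12.8 to 24.9 among themselves. Between total RNA of series b and of series bl the values ran from 1347 to 2786.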

Additional observations from a re-analysis of the deposited data

Results flagged for a closer look

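In 11 of 129 groups of 4 to 10 libraries 1 library lay far from the rest by Dixon's test, which chance does in about 1 in 20 groups. HERVH-int was at 78985 CPM in ORF2p replicate 1, where the next library was at 67477 CPM. LTR7A made up 0.0590% of LTR7 variant reads in ORF2p replicate 2, next to 0.0405%. ORF2p replicate 4 held 39.8% of LTR7C reads at linked copies, next to 44.0%, and 39.0% of linked reads at 5′ LTRs, next to 36.9%. In ORF1p replicate 3 the log2 ratio of LTR7 variant reads to HERVH-int reads was -3.90, next to -3.38, and the LTR7 copy at chr1:112820145-112820531 was at 18.4 CPM, next to 5.19 CPM.

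The other flags came from copies near 0. The LTR7A copy at chr19:39958975-39959078 was at 0.114 CPM in ORF1p replicate 4, with 0 in the rest, and at 0.114 CPM in ORF2p replicate 3, next to 0.464 CPM. The LTR7C copy at chr7:106838082-106838519 was at 0.0213 CPM in total RNA replicate 1, the LTR7 copy at chr1:185948279-185948729 at 0.0570 CPM in ORF1p replicate 4, and the LTR7Y copy at chr14:31250670-31251138 at 0.113 CPM in ORF1p replicate 1, each with 0 in the rest of its group.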

How the results depend on the processing

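Of 1560 recomputed changes, 1501 kept their direction and side of the threshold, 26 newly passed it, 18 no longer passed it and 15 reversed. The cause of each difference was not tested. Library totals in place of TMM moved the log2 change of LTR7 by -0.10 (ORF1p RIP over mock IP), -0.30 (ORF2p RIP over mock IP) and 0.20 (ORF1p RIP over ORF2p RIP). Against total RNA they moved it by -0.24 (ORF1p RIP), -0.45 (ORF2p RIP) and -0.14 (mock IP). With totals, LTR7 was at -1.10 in ORF2p RIP over mock IP and -1.08 in ORF1p RIP over total RNA. LTR7A was then at -0.14 in ORF2p RIP over mock IP, and linked LTR7C at -0.036. In ORF2p RIP over total RNA, LTR7A was at -1.11, LTR7C at -0.047 and LTR7Y at -0.20.

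Without series b, mock IP over total RNA gave -1.20 for LTR7A and 1.10 for LTR7C, and ORF2p RIP over total RNA gave 1.03 for LTR7, -1.06 for LTR7A and 0.19 for LTR7B. Without series bl, mock IP over total RNA gave 0.87 for LTR7, 0.083 for LTR7A, -0.40 for LTR7B and 0.81 for LTR7Y. ORF1p RIP over total RNA then gave -1.46 for LTR7, -1.31 for LTR7B and 0.88 for LTR7Y, and ORF2p RIP over total RNA 0.23 for LTR7A, -1.06 for LTR7B, -0.24 for LTR7C and -0.37 for LTR7Y. Fitted on the 2 groups alone, mock IP over total RNA gave 1.45 for LTR7 (adjusted p = 0.0514) and 1.41 for LTR7Y (adjusted p = 0.0538).

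Without the top copy of each variant, LTR7Y was at -0.25 in ORF1p RIP over mock IP and 0.91 in ORF1p RIP over ORF2p RIP. LTR7A was then at 0.41 in mock IP over total RNA, -0.18 in ORF2p RIP over mock IP and 0.23 in ORF2p RIP over total RNA. In percentage points, the LTR7 share in ORF2p RIP over mock IP was -0.267, and ORF1p RIP over ORF2p RIP was 1.43 for the linked share of LTR7B (0.384 with linking at 100 bp) and -2.06 for the 5′ share. Of the 78 share tests 15 passed in this setting and 15 when loci under 10 reads were left out.

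At a minimum count of 100, 382 copies were tested. In ORF1p RIP over mock IP 35 (9.16%) were called higher and 320 (83.8%) lower, where 39.0% and 39.1% of all loci were. The counts were 12 and 221 in ORF2p RIP over mock IP (all loci 30.4% and 15.2%) and 45 and 296 in ORF1p RIP over ORF2p RIP (29.0% and 46.8%). A minimum of 10 tested 1238 copies and gave 151 higher (12.2%) in ORF1p RIP over ORF2p RIP, where 26.1% of all loci were. Fewer or more copies are tested by construction. Mock IP over total RNA gave 550 higher and 7 lower without series b (all loci 15.8% and 21.3%). It gave 39 and 0 without series bl (1.38% and 0.0492%), and 2 lower with totals (2.21%). Leaving out 1 library gave 48 to 498 higher (all loci 0.403% to 8.42%) and 0 to 3 lower (0.00578% to 8.40%) there. In ORF2p RIP over mock IP it gave 12 to 24 higher (all loci 12.8% to 19.5%) and 226 to 371 lower (8.55% to 15.1%). It gave -1.02 to -0.68 for LTR7A in mock IP over total RNA and -0.038 to 0.31 in ORF2p RIP over mock IP. In ORF1p RIP over ORF2p RIP it gave -0.459 to 0.216 points for the linked share of LTR7B, -1.12 to 0.777 for that of LTR7C and -1.83 to 3.37 for the 5′ share.

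With the replicate number as a block, mock IP over total RNA had 11 copies higher and 0 lower (all loci 0.0498% and 0%). ORF2p RIP over mock IP then had 20 higher and 297 lower (all loci 15.9% and 11.7%). Same-numbered libraries correlated between -0.469 and 0.448 over 21 pairs (mean 0.059), and other pairs between groups had a mean of -0.024. Total RNA also differed by series, so these values cannot decide whether the numbers pair the libraries. Copies with few reads limit what depth can show: of 3634 copies, 746 could be tested.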
